A study of Homo sapiens with 18 samples.

Results

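The complement genes of the cells were 9 genes read on the arrays, chosen by name from the complement cascade and its regulators, of 19849 genes in all. They were C1R and C1S (proteases of the first complex), C3, C5 and CFB (components of the cascade), CFI (a soluble inhibitor), and CD46, CD55 and CD59 (inhibitors on the cell membrane). A single probe set stood for each gene. All 9 were retained by a filter on dim probe sets, which asked only that the highest group mean lie above the median of all values. Passing it does not show a signal in every group, and CFB passed through parental HCC827 cells alone.

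Complement is a cascade of plasma and tissue proteases in which C3 is cleaved and deposited on surfaces and C5 is cleaved to begin the pore that lyses cells. C1r and C1s start the classical pathway, and factor B forms the enzyme that cleaves C3 in the alternative pathway. Host cells are protected by factor I, which degrades C3b and C4b with cofactors such as CD46, by CD55, which dissociates the cleaving enzymes, and by CD59, which blocks the pore. The liver makes most of the plasma components, and airway and alveolar epithelial cells make several of them too.

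The study compared parental cells with TGFβ-induced mesenchymal cells of the human lung cancer lines A549, HCC827 and NCI-H358. The design had 6 groups of 3 arrays, 18 arrays in all. By the labels the mesenchymal cells had been kept with 2 ng/ml TGFβ for 3 weeks and were moved to medium without it on the day before lysis, whereas the methods give a time that differed by line. The parental cells received no stated treatment, and all cells grew in the same medium with serum. The study describes the 3 RNA samples of a group as distinct biological samples prepared together, so p values measure the spread within a single occasion.

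The epithelial and mesenchymal markers followed the labelled states, less fully in A549. CDH1, which encodes the epithelial adhesion protein E-cadherin, fell in all 3 lines, with log2 changes of -5.81 (A549), -2.95 (HCC827) and -3.94 (NCI-H358). VIM, which encodes the mesenchymal filament protein vimentin, rose by 2.03 in HCC827 and 2.31 in NCI-H358, and had a log2 change of 0.79 in A549, below the 2-fold limit. Of 5 epithelial markers 3, 5 and 5 fell in A549, HCC827 and NCI-H358, and of 5 mesenchymal markers 2, 4 and 4 rose. The lung lineage factor NKX2-1 was near the low end of all genes in parental A549 cells, at percentile 12.7. Of 4 lung markers none was called in A549 (limma), and 1 fell in each of the other lines, NAPSA in HCC827 and NKX2-1 in NCI-H358. The leukocyte marker PTPRC lay at percentile 3.17 to 6.33 and the hepatocyte marker ALB at percentile 4.71 to 12.2 of the genes in the 6 groups. None of 3 hepatocyte markers was called in any line (limma, adjusted p below 0.05 and more than 2-fold). Of 4 leukocyte markers 1, CD14, fell in A549, with a log2 change of -1.36.

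Values are log2 levels after robust multi-array averaging (RMA), and a difference of 1 is a 2-fold change. A gene was called when its adjusted p (limma, Benjamini-Hochberg over all 19849 genes) was below 0.05 and its change above 2-fold. Upon EMT, 3 of the 9 genes were called in A549, against 5 in HCC827 and 2 in NCI-H358, while over all genes 8.02%, 11.5% and 9.38% were called. Of all genes, 4.15%, 4.89% and 3.96% were called higher and 3.87%, 6.58% and 5.42% lower in the respective lines. The median log2 fold change of the 9 genes was -0.0081, -0.018 and -0.048, beside -0.021, 0.0051 and 0.015 over all genes. In all, 7 of the 9 genes were called in at least 1 line, as 19.4% of all genes were, and 10 of the 27 comparisons of a gene within a line were called. CD59 was called higher in all 3 lines, as 0.761% of all genes were. C3 was called in opposite directions in A549 and HCC827, a pattern found in 0.937% of all genes. Under the stricter thresholds of the study, an adjusted p below 1e-05 and more than 5-fold, 1 of the 9 genes was called in A549 (C5), 2 in HCC827 (CFB and CFI) and 0 in NCI-H358, with 1.90%, 2.95% and 2.17% of all genes called. At an adjusted p below 0.05 alone, 7, 7 and 5 of the 9 genes passed in A549, HCC827 and NCI-H358, beside 43.4%, 45.8% and 41.4% of all genes. Of these, CD55 in A549, C1S in HCC827 and CFB in NCI-H358 did not pass in every fit with a single array left out. In bulk RNA, fewer cells of a type and less RNA per cell cannot be told apart.

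**Figure D1:**
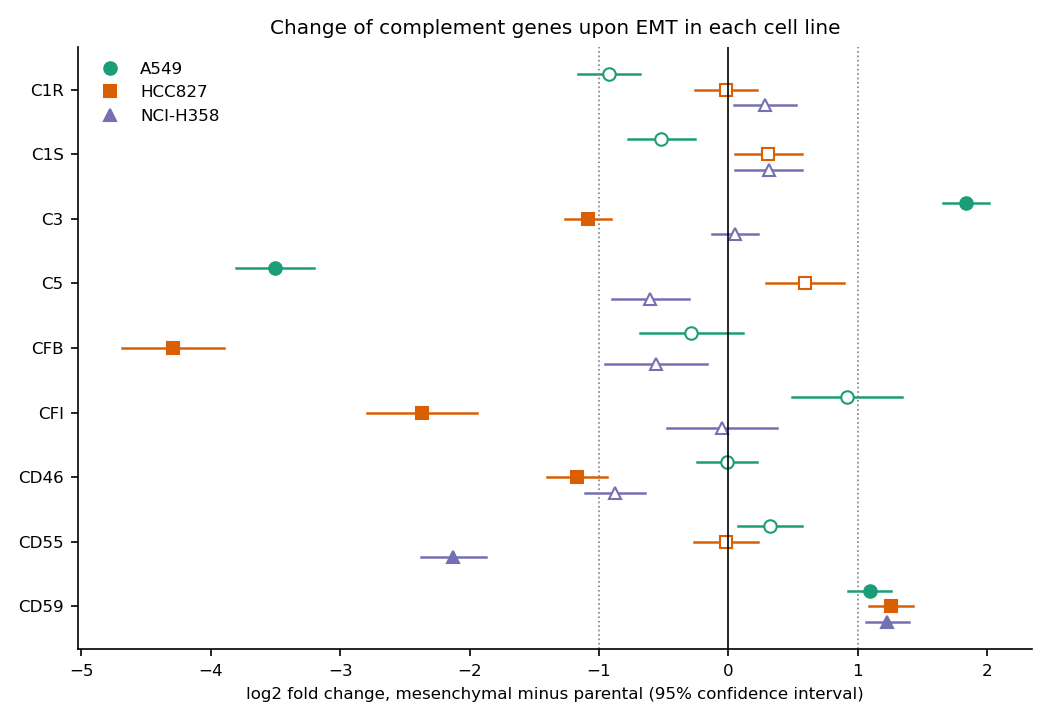
Log2 fold change of the 9 complement genes, mesenchymal minus parental, in A549 (circles), HCC827 (squares) and NCI-H358 (triangles), with bars for the 95% confidence interval of the limma fit; filled symbols are called and dotted lines mark 2-fold. CD59 lies between 1.09 and 1.26 in all 3 lines, whereas C5 and CFB each fall far in a single line.

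The sequence before the start is shown for 3 genes, CD59, CFB and C5, because CD59 rose in every line and CFB and C5 had the largest changes. The sequences were taken from RefSeq on GRCh38.p14 and run 5′ to 3′ on the strand of the gene, over the 250 bases before the outermost annotated start. Capitals mark matches, on either strand, to any of 7 short motifs: NF-kB GGGNNTTCC, C/EBP TTNNGNAA, an interferon response motif GAAANNGAA, a gamma-activated site TTCNNNGAA, AP-1 TGANTCA, SMAD CAGAC and the E-box CACCTG bound by ZEB and SNAI factors.
CD59 (chr11:33736480-33736729, minus strand): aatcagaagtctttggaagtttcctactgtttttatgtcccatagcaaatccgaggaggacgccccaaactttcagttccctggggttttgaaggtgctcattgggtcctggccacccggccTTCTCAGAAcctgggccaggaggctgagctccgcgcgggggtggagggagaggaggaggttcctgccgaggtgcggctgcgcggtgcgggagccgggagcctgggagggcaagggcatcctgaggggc
CFB (chr6:31945845-31946094, plus strand): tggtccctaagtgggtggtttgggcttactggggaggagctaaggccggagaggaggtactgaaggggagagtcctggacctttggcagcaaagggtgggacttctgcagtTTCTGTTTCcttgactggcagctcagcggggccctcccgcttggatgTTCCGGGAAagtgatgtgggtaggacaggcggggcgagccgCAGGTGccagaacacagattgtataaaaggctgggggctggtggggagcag
C5 (chr9:121074866-121075115, minus strand): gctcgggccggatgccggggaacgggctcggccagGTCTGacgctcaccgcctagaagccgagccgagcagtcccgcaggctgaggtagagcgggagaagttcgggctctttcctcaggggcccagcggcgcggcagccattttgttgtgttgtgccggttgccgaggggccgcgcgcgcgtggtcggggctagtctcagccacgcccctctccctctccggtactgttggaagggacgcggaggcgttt

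In CD59 the capitals are a gamma-activated site that begins 128 bases before the start. In CFB they are an interferon response motif 139 bases before the start, a gamma-activated site at 92 bases and an E-box at 51 bases. In C5 they are a SMAD motif at 215 bases. Windows were found by symbol for 7 of the 9 genes, all but C1S and C3, and CD59 has 4 annotated starts and C5 has 2. Over the 7 windows, 2 held a gamma-activated site, 1 the interferon response motif, 2 the E-box, 3 the SMAD motif and 2 the C/EBP motif, and 0 held the NF-kB or the AP-1 motif. Of all 35116 windows, 6.57% held the gamma-activated site, 6.88% the interferon response motif, 17.5% the E-box, 38.0% the SMAD motif, 33.2% the C/EBP motif, 5.78% the NF-kB motif and 6.57% the AP-1 motif. A match describes letters in the window, and the start used by these cells was not measured.

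The membrane regulators came apart upon EMT, with CD59 higher in every line and CD55 lower in NCI-H358. CD46 was lower in HCC827 and, by less than the 2-fold limit, in NCI-H358. CD59, which anchors in the membrane by a glycolipid and stops the last step of pore assembly, read 11.74, 11.89 and 11.90 in parental A549 cells and 12.91, 12.94 and 12.96 in their mesenchymal derivatives. In HCC827 it read 10.71, 11.04 and 11.02 before and 12.16, 12.14 and 12.24 after EMT. In NCI-H358 it read 10.59, 10.52 and 10.56 before and 11.80, 11.76 and 11.79 after. Every mesenchymal array was above every parental array of its line, and the 6 group means lay at percentile 93.3 to 99.3 of the genes.

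The rise of CD59 was 1.09 ± 0.0786 (SE, 2.13-fold, adjusted p 4.82e-09 by limma) in A549, 1.26 (2.39-fold, adjusted p 5.40e-10) in HCC827 and, in NCI-H358, 1.23 (2.34-fold, adjusted p 9.50e-10). No difference of this rise between lines passed the test. The change in HCC827 minus that in A549 was 0.16 (95% confidence interval -0.071 to 0.40, adjusted p 0.27 by limma), and in NCI-H358 minus A549 it was 0.13 (-0.10 to 0.37, adjusted p 0.372). In NCI-H358 minus HCC827 it was -0.030 (-0.27 to 0.21, adjusted p 0.877), so the intervals allow differences in the rise of up to 0.40 on the log2 scale.

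CD55, or decay-accelerating factor, read 10.66, 10.70 and 11.11 in parental NCI-H358 cells and 8.84, 8.60 and 8.66 in the mesenchymal cells, with no overlap. In A549 it read 9.72, 9.58 and 9.77 before and 10.05, 10.00 and 9.99 after EMT, and in HCC827 9.56, 9.21 and 9.20 before and 9.25, 9.26 and 9.42 after. Parental NCI-H358 cells were thus the highest of the 6 groups and mesenchymal NCI-H358 cells the lowest. The fall in NCI-H358 was by 2.12 on the log2 scale (SE 0.117, 4.36-fold, adjusted p 1.29e-10 by limma). The log2 change was 0.33 in A549 (adjusted p 0.0329 by limma, below the 2-fold limit) and -0.017 in HCC827 (adjusted p 0.931). With single arrays left out, the adjusted p of CD55 in A549 reached 0.12 (limma). The change in NCI-H358 differed from that in A549 by -2.45 (adjusted p 2.86e-09 by limma) and from that in HCC827 by -2.11 (adjusted p 2.82e-08).

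CD46, the membrane cofactor protein, read 9.17, 8.83 and 8.74 in parental HCC827 cells and 7.67, 7.78 and 7.77 in mesenchymal HCC827 cells. In NCI-H358 it read 8.24, 8.54 and 8.57 before and 7.69, 7.56 and 7.46 after EMT, and in A549 7.25, 7.28 and 7.43 before and 7.24, 7.29 and 7.41 after. The states did not overlap in HCC827 or NCI-H358 and overlapped throughout in A549, where parental cells already read lower than in the other lines. CD46 fell by 1.17 in HCC827 (SE 0.110, 2.25-fold, adjusted p 9.89e-08 by limma). The log2 change in NCI-H358 was -0.88 (adjusted p 4.03e-06 by limma, below the 2-fold limit) and in A549 -0.0081 (adjusted p 0.965). The change in HCC827 differed from that in A549 by -1.16 (adjusted p 9.93e-06 by limma). For NCI-H358 minus HCC827 the difference of the changes was 0.29 (95% confidence interval -0.034 to 0.62, adjusted p 0.157 by limma). The CD46 probe set is of a kind that can also bind similar transcripts.

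**Figure D2:**
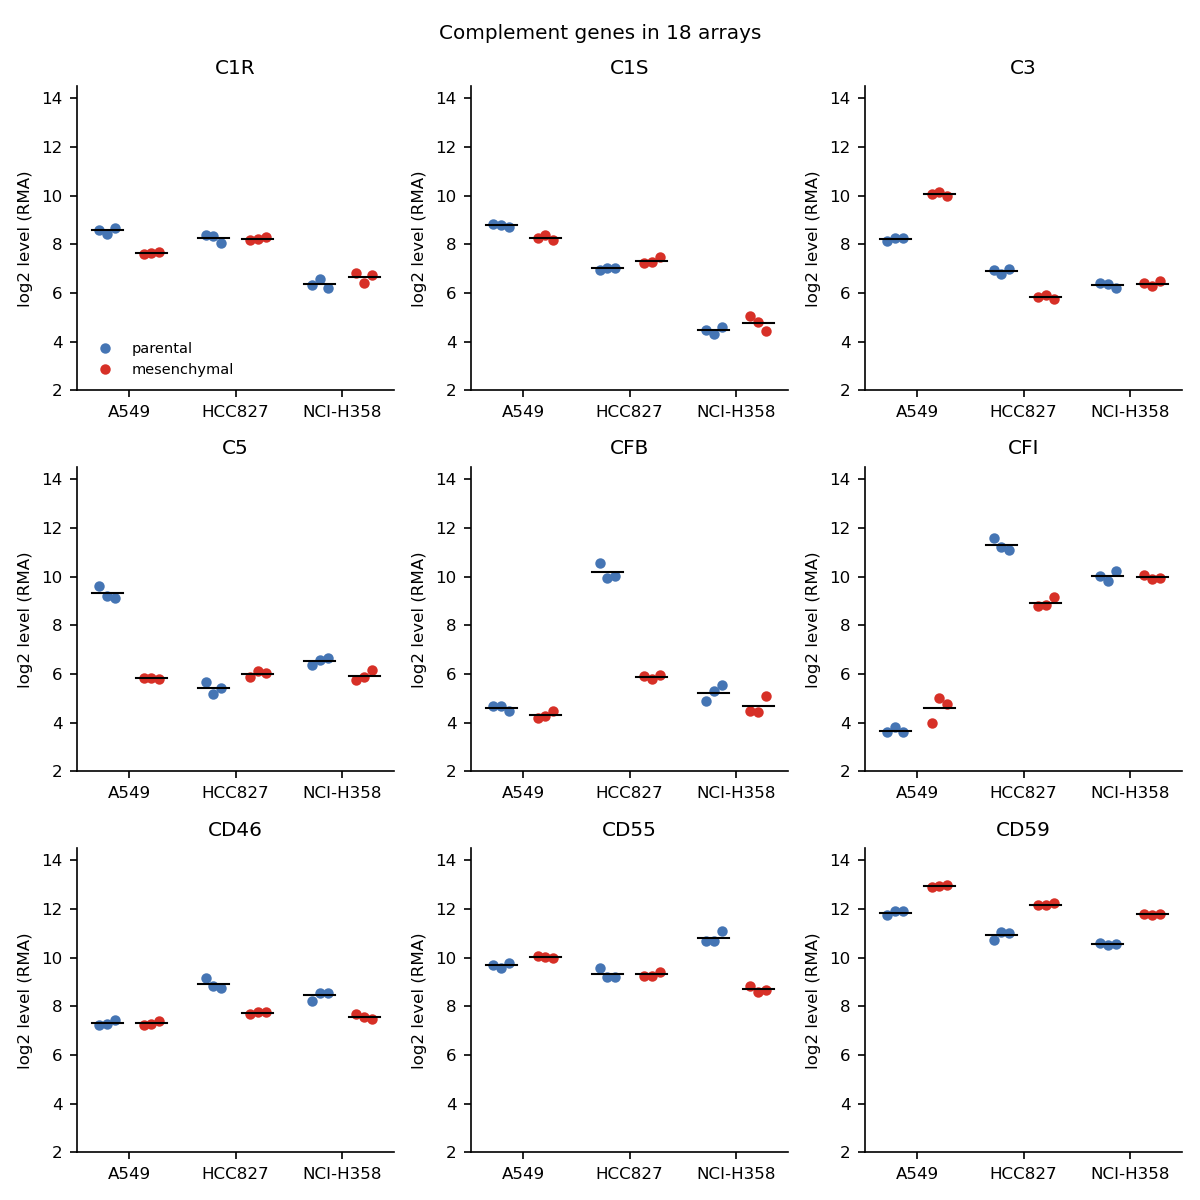
Log2 RMA level of each of the 9 complement genes in the 18 arrays, with parental cells in blue, mesenchymal cells in red and a line at the mean of the 3 arrays of a group. CD59 is higher after EMT in each line, while C3 parts in A549 and HCC827 in opposite directions and CFI is low in A549 in both states.

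Among the components, C3 rose in A549 and fell in HCC827, C5 fell in A549 and CFB fell in HCC827. C3, on which all activation pathways converge, read 8.13, 8.28 and 8.27 in parental and 10.07, 10.14 and 9.96 in mesenchymal A549 cells. In HCC827 it read 6.96, 6.78 and 6.99 before and 5.84, 5.90 and 5.73 after EMT, and in NCI-H358 6.41, 6.38 and 6.20 before and 6.40, 6.28 and 6.49 after. The A549 and HCC827 arrays separated by state in opposite directions, and those of NCI-H358 overlapped. C3 rose by 1.83 in A549 (SE 0.0837, 3.57-fold, adjusted p 1.23e-11 by limma) and fell by 1.08 in HCC827 (2.12-fold, adjusted p 8.78e-09). The log2 change in NCI-H358 was 0.055 (adjusted p 0.671 by limma), and all 3 differences of the change between lines passed the test, the widest being -2.92 for HCC827 minus A549 (adjusted p 5.74e-12).

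C5, whose cleavage starts the terminal pathway and releases the chemoattractant C5a, read 9.60, 9.22 and 9.14 in parental A549 cells and 5.82, 5.85 and 5.78 in mesenchymal A549 cells. It read 5.67, 5.17 and 5.41 before and 5.87, 6.12 and 6.04 after EMT in HCC827. In NCI-H358 it read 6.37, 6.57 and 6.65 before and 5.74, 5.86 and 6.18 after. Parental A549 cells stood far above the other 5 groups, and the 3 mesenchymal groups were close to each other. C5 fell by 3.50 in A549 (SE 0.141, 11.3-fold, adjusted p 2.31e-12 by limma). The log2 change was 0.59 in HCC827 (adjusted p 0.0021 by limma), while the NCI-H358 value was -0.60 (adjusted p 0.00209). They had opposite signs and were below the 2-fold limit. The change in HCC827 minus that in A549 was 4.10 (adjusted p 5.08e-11 by limma), in NCI-H358 minus A549 2.90 (adjusted p 3.63e-09) and in NCI-H358 minus HCC827 -1.20 (adjusted p 0.000129).

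CFB, the protease precursor of the alternative pathway, read 10.56, 9.96 and 10.00 in parental HCC827 cells and 5.91, 5.80 and 5.95 in mesenchymal HCC827 cells. The other 12 arrays read between 4.21 and 5.54, so mesenchymal HCC827 cells remained above all of them. CFB fell by 4.29 in HCC827 (SE 0.187, 19.6-fold, adjusted p 4.99e-12 by limma), the largest change among the 27 comparisons. The log2 change was -0.56 in NCI-H358 (adjusted p 0.0232 by limma) and -0.28 in A549 (adjusted p 0.246). With single arrays left out, the adjusted p of CFB in NCI-H358 reached 0.13 (limma). In A549 the mean lay at percentile 24.4 of the genes before and 19.9 after EMT. The change in HCC827 differed from that in A549 by -4.01 (adjusted p 2.21e-09 by limma), and that in NCI-H358 from HCC827 by 3.74 (adjusted p 7.74e-09).

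CFI, the soluble protease that inactivates C3b and C4b, was far lower in A549 than in the other lines in both states and fell in HCC827. It read 11.58, 11.20 and 11.11 in parental and 8.79, 8.83 and 9.17 in mesenchymal HCC827 cells. In NCI-H358 it read 10.01, 9.81 and 10.22 before and 10.08, 9.89 and 9.93 after EMT, and in A549 3.60, 3.81 and 3.61 before and 3.99, 5.02 and 4.78 after. The HCC827 states were far apart, the NCI-H358 states overlapped, and the A549 arrays were lowest in both states, at percentile 12.8 and 23.8 of the genes. CFI fell by 2.37 in HCC827 (5.16-fold, adjusted p 2.82e-08 by limma) and its log2 change in NCI-H358 was -0.048 (adjusted p 0.892). In A549 the log2 change was 0.92 ± 0.200 (SE, adjusted p 0.00116 by limma), below the 2-fold limit. Without the array at 3.99 it was 1.22 (adjusted p 8.73e-06 by limma), above that limit. Neither A549 state was shown to be above background, so this change is uncertain. The change in HCC827 differed from that in A549 by -3.29 (adjusted p 6.19e-08), and that in NCI-H358 from HCC827 by 2.32 (adjusted p 4.97e-06).

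The proteases of the first complex were called in no line. C1R read 8.61, 8.44 and 8.65 in parental and 7.61, 7.65 and 7.67 in mesenchymal A549 cells. In HCC827 it read 8.38, 8.34 and 8.04 before and 8.18, 8.20 and 8.31 after EMT, and in NCI-H358 6.31, 6.55 and 6.20 before and 6.80, 6.40 and 6.72 after. The A549 states did not overlap, and the states of the other lines did. The log2 change of C1R was -0.92 in A549 (SE 0.114, adjusted p 3.73e-06 by limma), -0.018 in HCC827 cells (adjusted p 0.923) and 0.29 in NCI-H358 cells (adjusted p 0.0551). Its change in NCI-H358 differed from that in A549 by 1.21 (adjusted p 1.03e-05).

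C1S, the protease that C1r activates, read 8.84, 8.78 and 8.73 in parental and 8.25, 8.36 and 8.17 in mesenchymal A549 cells. It read 6.96, 7.03 and 7.04 before and 7.22, 7.27 and 7.47 after EMT in HCC827, and 4.47, 4.33 and 4.58 before and 5.07, 4.81 and 4.43 after in NCI-H358. The lines kept their order in both states, with A549 highest and NCI-H358 lowest. The log2 change of C1S was -0.52 in A549 (SE 0.122, adjusted p 0.00226 by limma), 0.31 in HCC827 cells (adjusted p 0.0493) and also 0.31 in NCI-H358 cells (adjusted p 0.052). With single arrays left out, the adjusted p of C1S in HCC827 reached 0.187. C1R and C1S are next to each other on chromosome 12 with 0 protein-coding genes between them in RefSeq, and CD55 and CD46 lie on chromosome 1 with CR2, CR1 and CR1L between them.

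The measured change upon EMT thus differed between lines for most of the genes. For HCC827 against A549, 5 of the 9 changes differed by more than 1 on the log2 scale with an adjusted p below 0.05 (limma), as 13.4% of all genes did. For NCI-H358 against A549 there were 4 of 9, with 12.7% of all genes, and for NCI-H358 against HCC827 there were 5 of 9, with 11.0% of all genes. C1S and CD59 were in none of these counts, and C3 and C5 were in all 3. CFB in parental A549 and NCI-H358 cells (percentile 24.4 and 33.1) and CFI in parental A549 cells (12.8) were not shown to be above background. A fall from such levels may not be readable. The CFB differences and the CFI difference between HCC827 and A549 thus need not be a different response to EMT. For NCI-H358 against A549, 7 of 9 had an adjusted p below 0.05 alone (42.8% of all genes) and 2 of 9 passed the stricter thresholds (3.01%). For NCI-H358 against HCC827, 1 of 9 passed the stricter thresholds (2.06%).

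Before any TGFβ the lines already differed in these genes. Parental HCC827 and A549 cells differed more than 2-fold in 6 of the 9 genes (limma, adjusted p below 0.05), as in 18.8% of all genes. Parental NCI-H358 and A549 cells differed in 8 of 9, with 20.4% of all genes, and NCI-H358 and HCC827 in 6 of 9, with 15.2% of all genes. The stricter thresholds were passed by 3, 3 and 2 of the 9 genes in these pairs, and by 5.15%, 6.19% and 3.32% of all genes. The files hold no detection call, and CFI and CFB in parental A549 (percentile 12.8 and 24.4), CFB in parental NCI-H358 (33.1) and C1S in parental NCI-H358 (21.8) were not shown to be above background. The same holds for C5 in parental HCC827 (36.0). A fold against such a group is at best a lower bound. The fitted CFI level was 196-fold higher in HCC827 than in A549 (log2 difference 7.62 ± 0.200, SE, adjusted p 3.19e-15 by limma) and 80.9-fold higher in NCI-H358 than in A549. CFB was 47.6-fold higher in HCC827 than in A549 and 30.8-fold higher in HCC827 than in NCI-H358. C1S was 20.0-fold lower and C1R 4.63-fold lower in NCI-H358 than in A549. C5 was 14.9-fold lower in HCC827 and 6.92-fold lower in NCI-H358 than in A549.

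The 6 groups of each gene were put in order of their mean, and neighbours were called overlapping where the ranges of their 3 arrays met. Of the 45 neighbouring pairs over the 9 genes, 14 overlapped and 31 did not, and over all genes 37.8% of such pairs did not. No test was made of this. CD59 ran from mesenchymal A549 through mesenchymal HCC827, parental A549, mesenchymal NCI-H358 and parental HCC827 to parental NCI-H358, and of these only parental A549 and mesenchymal NCI-H358 overlapped. C3 was highest in both A549 groups and lowest in mesenchymal HCC827, with overlap only between the NCI-H358 states. In CFB the 4 groups of A549 and NCI-H358 formed a chain of overlaps below the HCC827 groups, and in C5 the 3 mesenchymal groups formed one, between parental NCI-H358 above and parental HCC827 below.

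The spread of the 3 line means, highest minus lowest on the log2 scale, was narrower in mesenchymal than in parental cells for 8 of the 9 genes, as for 50.0% of all genes, and no test was made of this. It went from 3.90 to 0.195 for C5, from 5.57 to 1.56 for CFB and from 1.59 to 0.427 for CD46. In parental cells a single line stood high, A549 for C5 and HCC827 for CFB. It went from 7.62 to 5.37 for CFI, from 4.32 to 3.49 for C1S and from 2.21 to 1.59 for C1R. For CD55 (1.50 and 1.31) and CD59 (1.29 and 1.15) it moved little, and for C3 it widened from 1.89 to 4.24. The lowest means of CFB and CFI (A549) and of C1S (NCI-H358) were not shown to be above background in either state. Nor was the lowest parental mean of C5 (HCC827), so these spreads are at best lower bounds. Over all genes the median spread was 0.576 in parental and 0.570 in mesenchymal cells.

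**Figure D3:**
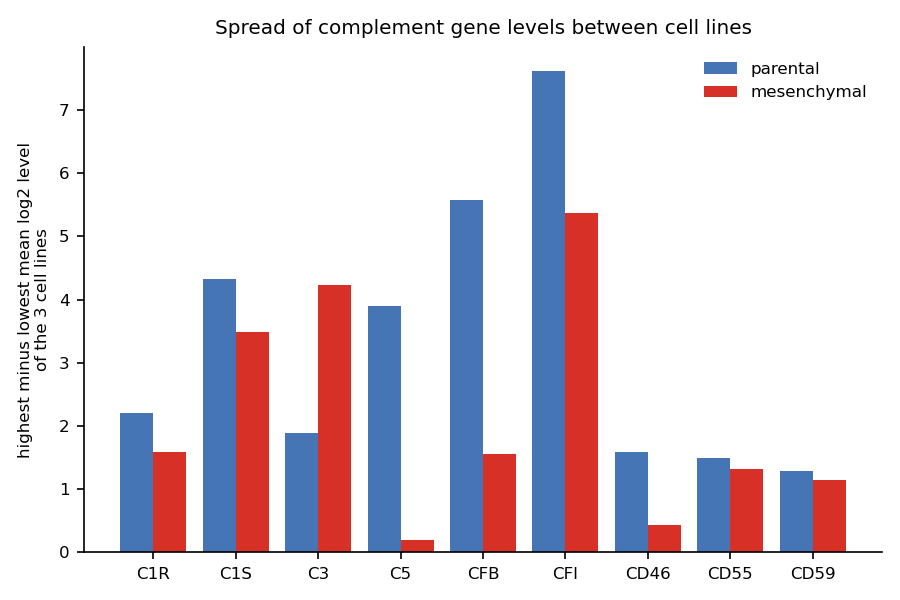
Highest minus lowest mean log2 level among the 3 cell lines (each a mean of 3 arrays) for each complement gene, in parental (blue) and mesenchymal (red) cells. The bars of C5, CFB and CD46 shrink after EMT (C5 from 3.90 to 0.195), and that of C3 grows from 1.89 to 4.24. The low ends of CFB, CFI and C1S, and of C5 in parental cells, were not shown to be above background.

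Of 49 other complement genes 46 were in the table, and 3 were called in A549 (1 higher, 2 lower), 7 in HCC827 (2 higher, 5 lower) and 6 in NCI-H358 (2 higher, 4 lower). These shares stand beside the 8.02%, 11.5% and 9.38% of all genes, and the median log2 fold change of the list was 0.020, -0.027 and -0.048. CFD, which encodes factor D, the protease that cleaves factor B, fell in all 3 lines, with log2 changes of -2.08 in A549 (adjusted p 6.8e-10 by limma), -1.17 in HCC827 and -1.25 in NCI-H358. SUSD4, which encodes a membrane protein with complement control domains, was called higher in all 3, with log2 changes of 2.24, 1.12 and 2.75. CLU, which encodes clusterin, a soluble inhibitor of pore assembly, rose by 5.80 in HCC827 and 1.51 in NCI-H358 and had a log2 change of -0.14 in A549. Before EMT, CLU lay at percentile 8.83 in HCC827 and 17.9 in NCI-H358, and SUSD4 at 11.8 in A549 and 9.71 in HCC827. They were not shown to be above background there, so their log2 changes are at best lower bounds. In HCC827, SUSD4 lay at percentile 23.5 after EMT as well, so neither state was shown to be above background and its rise there is uncertain.

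CFHR4, a member of a gene family with similar sequences, was called lower in HCC827 (log2 change -1.15) and NCI-H358 (-1.36). In HCC827 it lay at percentile 27.2 before and 12.1 after EMT, and neither state was shown to be above background. The parental HCC827 arrays read 4.49, 4.57 and 5.36. C1RL, a protease gene next to C1R, fell by 1.65 in HCC827. ITGB2, the common chain of the leukocyte complement receptors, fell in HCC827 (log2 change -2.69) and NCI-H358 (-2.34), and ITGAM, a partner chain, fell by 1.82 in A549. Of the leukocyte markers, PTPRC was near the low end in every group, while CD14 fell in A549 (log2 change -1.36). No gene of the 6 encoding the later pore components (C6 to C9) was called in any line by limma, with adjusted p below 0.05 alone in 2, 0 and 1 of them. Their means lay at percentile 3.86 to 28.3 in the 6 groups and were not shown to be above background. The lack of a call therefore does not show a steady level. By group, 0, 1 and 0 of 13 classical and lectin pathway genes, 1, 2 and 2 of 6 alternative pathway genes, 1, 3 and 3 of 12 regulators and 1, 1 and 1 of 9 receptors were called in A549, HCC827 and NCI-H358. Some classical and lectin genes were as low, such as C2 (percentile 6.74 to 11.0) and MBL2 (0.698 to 3.94), whereas C1RL lay at 61.8 to 88.5.

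Cytokines, their receptors and factors that act on acute-phase genes were read with other acute-phase genes, 20 of 22 listed genes being in the table. Of these 7 were called in A549 (3 higher, 4 lower), 9 in HCC827 (3 higher, 6 lower) and 5 in NCI-H358 (1 higher, 4 lower), beside 8.02%, 11.5% and 9.38% of all genes. The cytokine genes IL6, IL1A and IL1B rose in A549 by 6.42, 7.18 and 6.12, IL1A and IL1B from percentile 13.9 and 22.1 in parental cells, which were not shown to be above background. In HCC827 IL6 rose by 1.40 and IL1A by 1.63, with a log2 change of -0.89 for IL1B, and in NCI-H358 the changes were 0.35, -0.65 and -0.25. IL6R, the IL-6 receptor, fell in all 3 lines, with log2 changes of -1.12 (A549), -2.73 (HCC827) and -1.63 (NCI-H358).

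CP, which encodes ceruloplasmin, the copper protein of plasma, fell in all 3 lines, with log2 changes of -1.94 (A549), -3.03 (HCC827) and -2.28 (NCI-H358). LCN2, which encodes the iron-binding acute-phase protein lipocalin 2, fell by 6.13 in HCC827 and had log2 changes of -0.13 and -0.40 in A549 and NCI-H358. CEBPD, a transcription factor of the acute-phase response, fell by 3.18 in HCC827, with log2 changes of 0.14 in A549 and -0.92 in NCI-H358. The part of any of these genes in the complement changes was not tested.

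**Figure D4:**
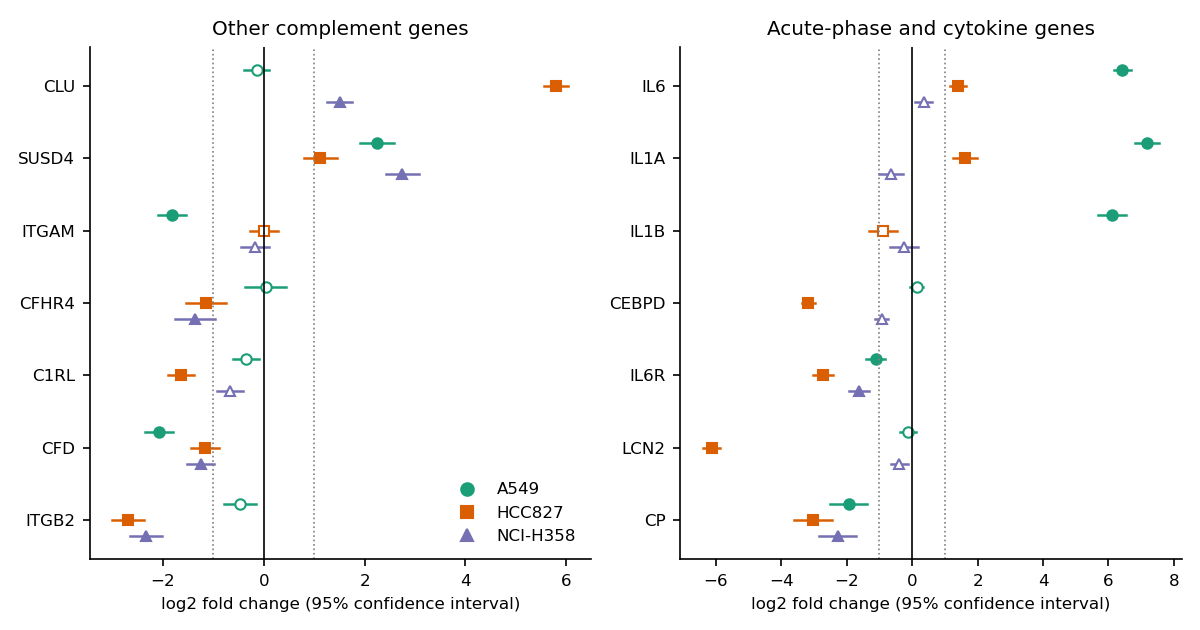
Log2 fold change upon EMT, with 95% confidence intervals, of the other complement genes (left) and acute-phase and cytokine genes (right) named in the text, in A549 (circles), HCC827 (squares) and NCI-H358 (triangles); filled symbols are called and dotted lines mark 2-fold. SUSD4 lies right and CFD left of 0 in all 3 lines, and IL6, IL1A and IL1B lie farthest right in A549.

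Over the 18 arrays, which share cell lines and states, the genes whose levels most resembled each complement gene were found by Pearson correlation. For CD59 they were CCDC80 (r 0.996) and TAGLN (0.99), for CD55 TP63 (0.95) and ACSL1 (0.94), and for CD46 ESRP2 (0.98) and TGOLN2 (0.98). For C3 they were SDSL (0.99) and MESDC1 (0.98), for C5 IGSF11 (0.97) and TM4SF20 (0.96), and for CFB TNFSF13 (0.98) and SFTA2 (0.98). For CFI they were RHOBTB3 (0.99) and CYP2J2 (0.99), for C1R NRP1 (0.98) and BRAT1 (0.98), and for C1S LOC389831 (0.99) and COX11 (0.99). Among the complement genes themselves the closest pair was C1R and C1S (r 0.88), followed by CFB and CD46 (0.83), and the most opposed was CD46 and CD59 (-0.82). These correlations rest on 6 group means, and high values are readily reached among 19849 genes.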

How the data were processed

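RNA of parental and mesenchymal cells was hybridized to Affymetrix U133 Plus 2.0 arrays. RMA was applied to the arrays by the authors, and the deposited log2 values cover 19849 genes with 1 probe set each. How that probe set was chosen and which annotation was used are not given in the sources used here. Of the gene IDs, 19326 were matched to the RefSeq gene table, and 0 columns were left without a sample. Genes were tested by lmFit and eBayes of limma 3.58.1 under R 4.3.3, over 6 groups and 18 arrays and without covariates, with Benjamini-Hochberg adjustment over all genes. In data simulated for the A549 comparison, with independent normal noise and no other gene changed, 200 of 200 genes changed 4-fold were called, with 0 false calls. This checks that the fit runs as intended and does not measure calls near the 2-fold limit. Medians of the arrays were 6.31 to 6.47, and the SD of differences between arrays of a group was 0.163 to 0.282. The genes named were the 9 complement genes, up to 8 called genes of each of the lists with the largest mean change, the 2 genes most correlated with each complement gene, and CDH1 and VIM. CD14, NAPSA, NKX2-1, PTPRC and ALB were named after their values were seen. The complement genes and the lists were chosen with earlier results of these data known, so counts over them are descriptions. The alternatives tried were other thresholds, models, normalizations, a filter on dim probe sets and the omission of arrays. Protein levels, secretion and other probe sets were not analysed here. A gene of each list that the rule would name is not reported here.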

Additional observations from a re-analysis of the deposited data

Results flagged for a closer look

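In 14 cases the change of a complement gene upon EMT differed between a pair of cell lines by more than 1 on the log2 scale (contrast of contrasts in the limma fit, adjusted p below 0.05). Differences are given as the change in the line named first minus the change in the second. For C3 they were -2.92 (HCC827 and A549), -1.78 (NCI-H358 and A549) and 1.14 (NCI-H358 and HCC827). For C5 they were 4.10, 2.90 and -1.20 in the same order. CFB differed by -4.01 for HCC827 and A549 and by 3.74 for NCI-H358 and HCC827. CFI differed by -3.29 and 2.32 for these pairs. CD55 differed by -2.45 for NCI-H358 and A549 and by -2.11 for NCI-H358 and HCC827. CD46 differed by -1.16 for HCC827 and A549, and C1R by 1.21 for NCI-H358 and A549. The pairs share lines, so the 14 differences are not independent. They were 5, 4 and 5 of the 9 genes for HCC827 and A549, NCI-H358 and A549, and NCI-H358 and HCC827. Over all genes the shares for these pairs were 13.4%, 12.7% and 11.0%. The differences of CFB, and that of CFI between HCC827 and A549, involve parental groups not shown to be above background. The same holds for the C5 differences that involve HCC827 (percentile 36.0 in parental cells). A fall of C5 as large as in A549 might not be readable in NCI-H358 either.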

How the results depend on the processing

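Only the thresholds of the call moved a count by more than 1.5 times. Without the 2-fold limit, 7 of the 9 complement genes in A549 and 5 in NCI-H358 passed an adjusted p below 0.05, beside 43.4% and 41.4% of all genes. The difference of the change between NCI-H358 and A549 then passed for 7 of the 9, beside 42.8% of all genes. The other complement genes then numbered 14, 16 and 16 of 46 in A549, HCC827 and NCI-H358, beside 43.4%, 45.8% and 41.4% of all genes. Under the study's thresholds, 1, 2 and 0 complement genes and 0, 3 and 2 other complement genes were called in the 3 lines, beside 1.90%, 2.95% and 2.17% of all genes. The differences of the change then numbered 2 for NCI-H358 against A549 (3.01% of all genes) and 1 for NCI-H358 against HCC827 (2.06%). The parental differences numbered 3 for HCC827 against A549 (5.15%), 3 for NCI-H358 against A549 (6.19%) and 2 for NCI-H358 against HCC827 (3.32%). The calls of the 9 genes upon EMT were neither turned in direction nor lost under an intensity trend, array weights, a filter on dim probe sets, renewed quantile normalization, centring on array medians, a separate fit per line, Student's t-test (the general test of the methods, which name limma for the arrays), the omission of single arrays or that of 3 parental arrays numbered apart in their titles, chosen after seeing the data. With single arrays left out, the count in A549 was 3 to 4. The added gene was CFI at 1.22, with neither A549 state shown to be above background. The parental differences then were 7 to 8 for NCI-H358 against A549 and 5 to 6 for NCI-H358 against HCC827. The other complement genes called in HCC827 were 6 to 8. The rise of CD59 then ranged from 1.04 to 1.12 in A549, 1.15 to 1.32 in HCC827 and 1.21 to 1.24 in NCI-H358. No paired analysis was possible because the labels give no replicate numbers. The 3 arrays per group and the single probe set per gene limit the precision, and C1S in NCI-H358, CFB and CFI in A549 and parental CLU in HCC827 were read near the low end of the signal.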
